A study of Mus musculus with 20 samples.

Results

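Mouse kidneys express several fibroblast growth factors (FGFs) and all 4 signalling FGF receptors. Described here are 9 of their genes among the 24421 gene symbols with counts: the ligands Fgf18, Fgf1, Fgf9 and Fgf21, the receptors Fgfr1, Fgfr2, Fgfr3 and Fgfr4, and the co-receptor Klb. They were chosen by gene symbol, and the set was selected on a readout, since Fgf18 had been seen to be higher in Fh1-/- kidneys at day 10. The genotype contrast at day 10 is therefore given for these 9 genes as a description without p-values, and nothing is read from its count of calls. RNA from small pieces of frozen kidney was sequenced in 20 libraries, 5 in each of 4 groups: Fh1-/- at day 10, Fh1+/+ at day 10, Fh1-/- at day 5 and Fh1+/+ at day 5. All mice were 12 weeks old, of mixed C57BL/6 and 129/SvJ background, and received 3 intraperitoneal injections of 2 mg tamoxifen. All of them, controls included, carried a tamoxifen-activated Cre (Cre-ERT2) expressed in every tissue from Rosa26. In Fh1-/- mice, floxed exons 3 and 4 of Fh1, the gene of the mitochondrial enzyme fumarate hydratase, were excised, whereas Fh1+/+ controls lacked the floxed allele. The loss of Fh1 was thus not limited to one kidney cell type or to the kidney. The labels do not say that each library came from a separate mouse, so p-values measure the spread between libraries.

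FGFs are secreted signals that bind receptor tyrosine kinases together with heparan sulfate or with a klotho protein, and the activated receptor passes the signal through FRS2 and the RAS, RAF and ERK kinases. Fgf1, Fgf9 and Fgf18 act near the cell that makes them and need heparan sulfate. Fgf21 acts as a hormone, is best known from the fasted liver and from stressed mitochondria, and needs beta-klotho, the product of Klb. The kidney is a main target of another hormone of the family, Fgf23, which signals through alpha-klotho (Kl) and lowers phosphate uptake in the tubule.

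Total counts were between 16654829 and 25001294 reads a library. Levels are given as CPM, read counts relative to library size, scaled over all 20 libraries by the trimmed mean of M values (TMM). Fh1 itself had 351, 248, 365, 413 and 360 CPM in Fh1-/- libraries at day 10, against 247, 231, 233, 222 and 259 CPM in Fh1+/+ libraries, and 199 to 242 CPM in Fh1-/- libraries at day 5, against 215 to 266 CPM in Fh1+/+ libraries. The gene-level count was thus not lower in the libraries labelled Fh1-/- at day 10. The excised exons make up 288 of the 2636 bases (10.9%) of transcript Fh1-201, so this count does not check the excision, and the genotypes rest on the labels. Replicates 1 and 3 of the Fh1-/- day 10 group stood apart from the other 18 libraries on the first principal component, at 123 and 125 against -31.2 to 31.7. The summed level of 6 markers of tubular injury (Havcr1, Lcn2, Krt20, Vcam1, Spp1 and Clu, all detected) was 137000 and 129000 CPM in these 2 libraries. It was 3020, 12400 and 13700 CPM in Fh1-/- replicates 2, 4 and 5 at day 10, against 1160 to 2410 CPM in the 5 Fh1+/+ libraries of that day. The sum of 5 proximal tubule markers was 2930 and 2970 CPM in replicates 1 and 3 and 6840 to 8170 CPM in the other Fh1-/- libraries at day 10, against 6210 to 9820 CPM in Fh1+/+ libraries. In tissue pieces, fewer cells of a type and less RNA per cell cannot be told apart. Fold changes of the members at day 10 are therefore also given without replicates 1 and 3, a choice made after the data were seen.

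Fgf18 and Fgf21 were the members whose Fh1-/- and Fh1+/+ libraries did not overlap at day 10, so their promoters are shown. The same held for 7.63% of all genes tested. For Fgf21 it rests on 1 read in Fh1-/- replicate 2, against 0 in the Fh1+/+ libraries. The 300 bases run from 250 before to 50 after the start site and were taken from RefSeq on GRCm38.p6, where 7 of the 9 members had an entry. The Fgf21 promoter lies on the minus strand at chr7:45615441-45615740 and the Fgf18 promoter on the minus strand at chr11:33147351-33147650. Capitals mark matches to 5 motifs searched on both strands, and both sequences read 5′ to 3′.
Fgf21 promoter: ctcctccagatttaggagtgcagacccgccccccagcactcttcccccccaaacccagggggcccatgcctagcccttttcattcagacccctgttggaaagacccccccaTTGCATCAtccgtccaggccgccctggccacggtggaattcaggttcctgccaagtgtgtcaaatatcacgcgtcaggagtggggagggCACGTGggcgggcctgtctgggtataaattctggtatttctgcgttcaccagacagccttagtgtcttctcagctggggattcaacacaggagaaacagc
Fgf18 promoter: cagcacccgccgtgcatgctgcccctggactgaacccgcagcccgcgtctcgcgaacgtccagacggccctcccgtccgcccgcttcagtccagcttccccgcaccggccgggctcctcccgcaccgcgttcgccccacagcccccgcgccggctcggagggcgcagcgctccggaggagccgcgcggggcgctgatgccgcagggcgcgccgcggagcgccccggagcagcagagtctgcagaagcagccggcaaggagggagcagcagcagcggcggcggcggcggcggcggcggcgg
The first capitals in the Fgf21 promoter match TTGCATCA, a composite site of the kind that C/EBP and ATF factors bind, and begin 139 bases before the start site (position -139). This motif was found in 0.895% of the 32851 promoters in the table. The second capitals match the E-box CACGTG, which begins at -50, and 7.15% of all promoters hold one. The Fgf18 promoter held no match to these motifs or to the AP-1 motif TGANTCA (7.81% of promoters), the cAMP response element TGACGTCA (1.79%) or the STAT motif TTCNNNGAA (8.3%). Its GC content was 78.7%, that of the Fgf21 promoter 58.0%, and the median over all promoters 52.7%. Among the other 6 member promoters searched, of Fgf9, Klb, Fgfr2, Fgfr3 (2 promoters) and Fgfr4, the Fgfr2 promoter held an E-box beginning at position 28 and the rest held no match. A match is a run of letters and no measure of binding.

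Fgf18, a ligand known from skeletal and lung development, lies on chromosome 11 of GRCm38 (chr11:33117430-33147400, minus strand). It had 19.2, 6.72, 16.8, 8.04 and 6.66 CPM in Fh1-/- replicates 1 to 5 at day 10, against 1.395, 1.20, 1.38, 1.85 and 1.12 CPM in Fh1+/+ replicates. Every Fh1-/- library was above every Fh1+/+ library of that day, and replicates 1 and 3 were the highest. In reads, these libraries held 120 to 313 against 20 to 35. The group means were 11.5 ± 6.03 CPM in Fh1-/- and 1.39 ± 0.285 CPM in Fh1+/+ kidneys (SD, n = 5 each), with a log2 fold change of 3.03 (SE 0.36). Relative to the Fh1+/+ mean, single Fh1-/- libraries were between 4.79 and 13.8 times as high. Without replicates 1 and 3 the log2 fold change was 2.37, and the remaining 3 libraries were still 4.79 to 5.78 times the Fh1+/+ mean. Replicate 2 had 6.72 CPM of Fgf18 with an injury marker sum of 3020 CPM, the lowest of its group, whereas Fh1+/+ libraries of either day with sums up to 2680 CPM held at most 2.49 CPM. Whether injured tubules account for part of the Fgf18 level was not tested.

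At day 5, which did not enter the choice of genes, Fgf18 had 3.30, 1.93, 1.92, 1.70 and 1.66 CPM in Fh1-/- replicates, against 1.20, 2.26, 2.49, 1.76 and 1.66 CPM in Fh1+/+ replicates. The groups overlapped, and only Fh1-/- replicate 1 lay above all Fh1+/+ libraries. The log2 fold change was 0.15 (SE 0.27) with an adjusted p of 1 (edgeR, quasi-likelihood test, Benjamini-Hochberg over 14404 genes), and without that replicate it was -0.07.

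Fgf21 (chr7:45613886-45615490, minus strand), the endocrine ligand, was read in a single group. Its reads numbered 52, 1, 65, 17 and 6 in Fh1-/- replicates 1 to 5 at day 10, or 3.19, 0.056, 4.62, 0.936 and 0.268 CPM, against 0 in all 5 Fh1+/+ libraries. No read was found in any of the 10 libraries of day 5 either. Pooled, the Fh1-/- libraries at day 10 held 141 reads of 94251273 in all, and the Fh1+/+ libraries 0 of 90450802. With a limit of 3 reads over the group, 0 reads allows up to 0.0313 CPM. The pooled level in Fh1-/- kidneys at day 10 was 50.7 times that limit. This ratio allows for counting error in the Fh1+/+ libraries only, since the Fh1-/- reads are taken as they stand. It was 32.5 without replicate 3 and 64.9 without replicate 5, and 13.1 without both replicates 1 and 3. Replicate 2 alone, at 0.056 CPM from 1 read, lay close to the limit. Set in the same way against the limit in Fh1-/- kidneys at day 5, the pooled level at day 10 was 53.6-fold higher. Liver is the best known source of Fgf21. The sum of 5 liver markers (Alb, Apoa2, Ttr, Serpina1a and Cyp2e1, all detected, some of them also made in kidney) was 645 and 626 CPM in replicates 1 and 3, which held most Fgf21 reads. It was 3370, 5390 and 1710 CPM in Fh1-/- replicates 2, 4 and 5, against 204 to 1910 CPM in Fh1+/+ libraries. Alb, the most liver-restricted of them, had 3.55 to 10.6 CPM in Fh1-/- and 4.32 to 28.3 CPM in Fh1+/+ libraries at day 10. The part of liver tissue in the Fgf21 reads was not tested.

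Klb, whose product beta-klotho Fgf21 needs for signalling, lies at chr5:65348314-65384007 on the plus strand and was close to the limit of detection in every group. It had 2, 27, 3, 3 and 0 reads in Fh1-/- libraries at day 10, against 1, 3, 1, 9 and 24 in Fh1+/+ libraries. At day 5 the reads were 2, 7, 1, 2 and 5 in Fh1-/- libraries, against 11, 1, 12, 4 and 1 in Fh1+/+ libraries. The groups overlapped at both days, and 1 library in each group of day 10 held most of its reads. The ratio of Fh1-/- to Fh1+/+ was 0.994 at day 10 (95% counting interval 0.61 to 1.62) and 0.549 at day 5 (0.283 to 1.03). The 2 libraries with the most Klb, Fh1-/- replicate 2 and Fh1+/+ replicate 5 of day 10, had fat cell marker sums (Adipoq, Plin1, Cfd, Lep and Cidec) of 444 and 165 CPM. Those were the highest sums of their groups, where the other libraries held 4.62 to 25 CPM in Fh1-/- and 1.45 to 86.4 CPM in Fh1+/+ kidneys. The part of fat tissue in the Klb reads was not tested. Neither Fgf21 nor Klb passed the filter on low counts, so 7 of the 9 members entered the fits.

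**Figure D1:**
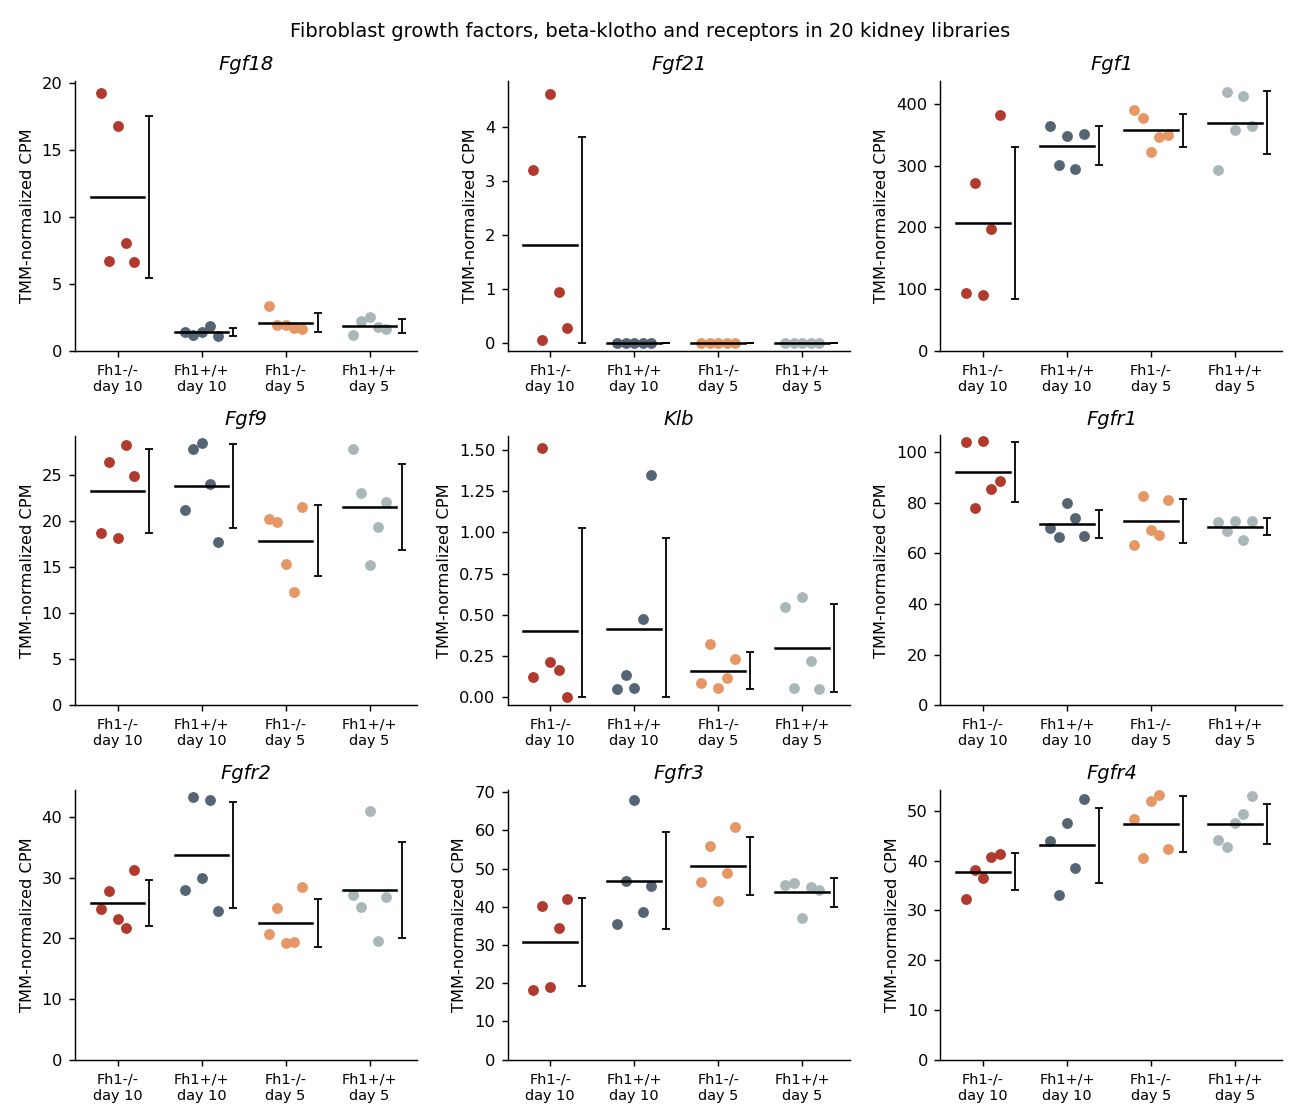
TMM-normalized CPM of the 9 genes (vertical axis, from 0) in the 5 libraries of each group, each point a library, with the group mean as a line and the SD as a bar (cut off at 0). Fgf18 lies between 6.66 and 19.2 CPM in Fh1-/- kidneys at day 10, against 1.12 to 1.85 CPM in Fh1+/+ kidneys, and Fgf21 is at 0 in the other 3 groups.

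Fgf1, a ligand that can bind all 4 signalling receptors, was the most abundant of the 4 ligands per exon length in every group. At day 10 it had 93.9, 273, 90.8, 197 and 382 CPM in Fh1-/- replicates, against 365, 301, 349, 295 and 352 CPM in Fh1+/+ replicates. In Fh1-/- kidneys 4 of 5 libraries lay below all Fh1+/+ libraries, and replicate 5 lay above them all. Means were 207 ± 124 CPM in Fh1-/- and 332 ± 31.9 CPM in Fh1+/+ kidneys (SD, n = 5 each), with a log2 fold change of -0.69 (SE 0.37). Without replicates 1 and 3, the libraries with the fewest proximal tubule markers, it was -0.21. At day 5 the means were 357 ± 26.6 CPM and 370 ± 51.0 CPM (SD, n = 5 each) in Fh1-/- and Fh1+/+ kidneys, and the log2 fold change of -0.06 had an adjusted p of 1 (edgeR).

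Fgf9, a ligand that acts in the forming kidney to keep nephron progenitors, had 18.7, 26.4, 18.1, 28.2 and 24.9 CPM in Fh1-/- replicates at day 10, against 21.1, 27.8, 28.5, 24.0 and 17.7 CPM in Fh1+/+ replicates. No Fh1-/- library lay outside the Fh1+/+ range, and the log2 fold change was -0.04 (SE 0.17). Its sign turned without replicates 1 and 3, where it was 0.17. At day 5 it averaged 17.9 ± 3.87 CPM in Fh1-/- and 21.5 ± 4.67 CPM in Fh1+/+ kidneys (SD, n = 5 each), and the log2 fold change was -0.28 (edgeR, adjusted p = 1).

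Of the receptors, which all carry a tyrosine kinase and differ in the ligands they bind, Fgfr1 (chr8:25513654-25575718, plus strand) was the one with a positive log2 fold change at day 10, of a size below the threshold of 0.58 used for calls. It had 104, 78.0, 104, 85.4 and 88.6 CPM in Fh1-/- replicates, against 70.0, 66.4, 79.9, 74.0 and 67.0 CPM in Fh1+/+ replicates. All but replicate 2 lay above every Fh1+/+ library, and the log2 fold change was 0.36 (SE 0.11). It was 0.25 without replicates 1 and 3, which held the most Fgfr1, and 0.32 to 0.41 without any one library. Fgfr3 (chr5:33721674-33737068, plus strand) had 18.2, 40.3, 19.1, 34.4 and 42.1 CPM in Fh1-/- replicates, against 35.5, 46.9, 68.1, 38.5 and 45.3 CPM in Fh1+/+ replicates. The lowest values were again those of replicates 1 and 3, and 3 of 5 Fh1-/- libraries lay below all Fh1+/+ libraries. Its log2 fold change of -0.61 (SE 0.27) was -0.25 without them.

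Fgfr2, the receptor whose epithelial form binds Fgf7 and Fgf10, had 24.9, 27.8, 23.3, 21.7 and 31.3 CPM in Fh1-/- replicates at day 10, against 28.1, 43.3, 30.1, 42.9 and 24.6 CPM in Fh1+/+ replicates. Fgfr4 (chr13:55152640-55168759, plus strand), which in liver pairs with beta-klotho, had 32.3, 38.1, 36.4, 40.7 and 41.4 CPM in Fh1-/- replicates, against 43.9, 33.1, 47.5, 38.4 and 52.4 CPM in Fh1+/+ replicates. The genotypes overlapped for both, with log2 fold changes of -0.39 for Fgfr2 (-0.31 without replicates 1 and 3) and -0.19 for Fgfr4 (-0.09 without them). In the annotation, exons of Fgfr1, Fgfr2 and Fgfr3 share 1.7%, 3.0% and 13.9% of their bases with another gene. These are the antisense Gm16159 for Fgfr1, Ctbp2 on the same strand for Fgfr2 and the opposite-strand G630022F23Rik for Fgfr3. G630022F23Rik had no row in the counts. Reads in the bases shared with Ctbp2 cannot be assigned with certainty, since strand does not separate the genes. For Fgfr1 and Fgfr3 it depends on how strand was handled in counting, which the sources used here do not state.

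At day 10, 1 of the 7 tested members (Fgf18) passed the threshold of an adjusted p under 0.01 and an absolute log2 fold change over 0.58, in a contrast in which 0.0557% of 14360 genes did so. The groups did not overlap for 7.63% of all genes tested. Since Fgf18 was selected on this contrast, nothing is read from that count. It was 0 without any one of 9 of the 10 libraries and 1 without Fh1-/- replicate 2, or without both replicates 1 and 3, while the log2 fold change of Fgf18 stayed between 2.78 and 3.19 without any one library. Y-linked transcripts were present in 2 of 5 Fh1-/- and 3 of 5 Fh1+/+ libraries at day 10, and the count was also 0 with their presence or absence as a covariate. At day 5, 0 of 7 members passed, where 0.0347% of 14404 genes were called and 0.909% had groups that did not overlap. No member had an unadjusted p under 0.05 there, and DESeq2 also called 0 of them. The largest differences at day 5 were those of Fgfr2 at -0.32, Fgf9 at -0.28 and Fgfr3 at 0.20 on the log2 scale, each with an adjusted p of 1.

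The control kidneys of both days were compared to see how levels varied with time alone. Between day 10 and day 5 in Fh1+/+ kidneys, 0 of 7 members passed, with 0 at an unadjusted p under 0.05 and 0 by DESeq2. Over all genes edgeR called 0% of 14501, with 288 higher and 287 lower at unadjusted p under 0.05 and 0 by DESeq2, and the groups did not overlap for 0.559%. The log2 fold change of day 10 against day 5 was -0.43 for Fgf18, which averaged 1.39 ± 0.285 CPM at day 10 and 1.87 ± 0.510 CPM at day 5 (SD, n = 5 each). The other members ranged between -0.15 for Fgf1 and 0.27 for Fgfr2, and adjusted p-values for all 7 were between 0.95 and 0.98 (edgeR).

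**Figure D2:**
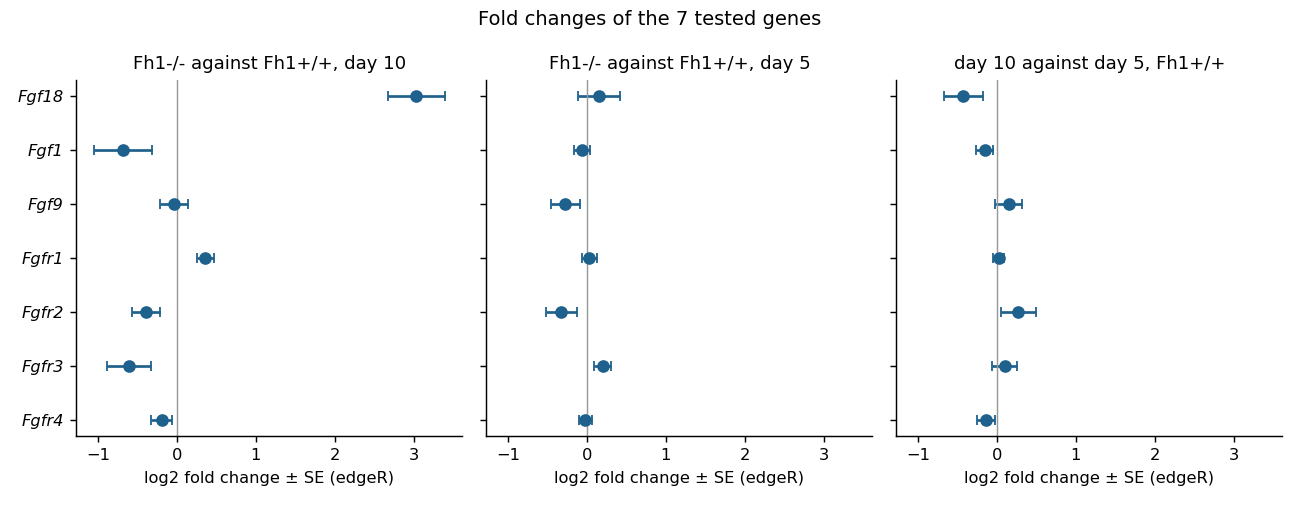
Log2 fold changes (horizontal axis) with their standard errors for the 7 genes that passed the filter on low counts, for Fh1-/- against Fh1+/+ at day 10 (left), the same at day 5 (middle) and day 10 against day 5 in Fh1+/+ (right). Fgf18 stands at 3.03 at day 10 and at 0.15 at day 5, and the other genes lie between -0.69 and 0.36 in all 3 panels.

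Divided by exon length, taken as the union of all annotated exons of a gene, the levels of different genes can be roughly compared. In Fh1-/- kidneys at day 10 the ligands stood at 37.95 CPM per kb for Fgf1, 9.67 for Fgf18, 5.00 for Fgf9 and 1.91 for Fgf21. In Fh1+/+ kidneys at day 10 they stood at 60.9 CPM per kb for Fgf1, 5.12 for Fgf9, 1.17 for Fgf18 and 0 for Fgf21. Per kb, Fgf18 exceeded Fgf9 in 4 of 5 Fh1-/- libraries at day 10 and in 0 of 5 libraries of each of the other groups. This order depends on the exon lengths, 1.187 kb for Fgf18 and 4.649 kb for Fgf9. In CPM, the Fh1-/- means at day 10 were 11.5 for Fgf18 and 23.25 for Fgf9. The order of the receptors was the same in both groups, with Fgfr4 at 10.7 and 12.2 CPM per kb in Fh1-/- and Fh1+/+ kidneys, Fgfr1 at 9.33 and 7.24, Fgfr3 at 4.31 and 6.54, and Fgfr2 at 2.5 and 3.27. Neighbouring receptors that overlapped in range were Fgfr4 and Fgfr1, and Fgfr3 and Fgfr2, in Fh1-/- kidneys, and Fgfr1 and Fgfr3 in Fh1+/+ kidneys. Of the ligands, the ranges of Fgf18 and Fgf9 overlapped in Fh1-/- kidneys and not in Fh1+/+ kidneys. Klb was at 0.0885 CPM per kb in Fh1-/- and 0.091 in Fh1+/+ kidneys. Its relative Kl was at 34.3 and 85.3 CPM per kb, and the kinase-less receptor Fgfrl1 at 17.5 and 15.2.

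As a share of the summed per-length level of the 4 receptors, Fgfr1 made up 35.1 ± 6.34% in Fh1-/- kidneys at day 10 and 24.9 ± 1.79% in Fh1+/+ kidneys (SD, n = 5 each). The lowest Fh1-/- library, at 29.3%, lay above the highest Fh1+/+ library, at 26.9%, and the highest Fh1-/- library was at 42.8%. Fh1-/- replicates 1 and 3 had the most Fgfr1 and the least Fgfr3 in CPM, and the shares were not computed without them. Fgfr3 made up 15.8 ± 5.15% in Fh1-/- and 22.2 ± 4.02% in Fh1+/+ kidneys, and Fgfr4 39.8 ± 1.93% and 41.6 ± 5.61%. The sum itself was 26.8 ± 1.85 CPM per kb in Fh1-/- and 29.2 ± 2.96 CPM per kb in Fh1+/+ kidneys (SD, n = 5 each), with overlapping ranges of 24.6 to 29.6 and 26.8 to 33.9 CPM per kb. At day 5 the share of Fgfr1 was 24.5 ± 2.41% in Fh1-/- and 24.3 ± 0.966% in Fh1+/+ kidneys.

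**Figure D3:**
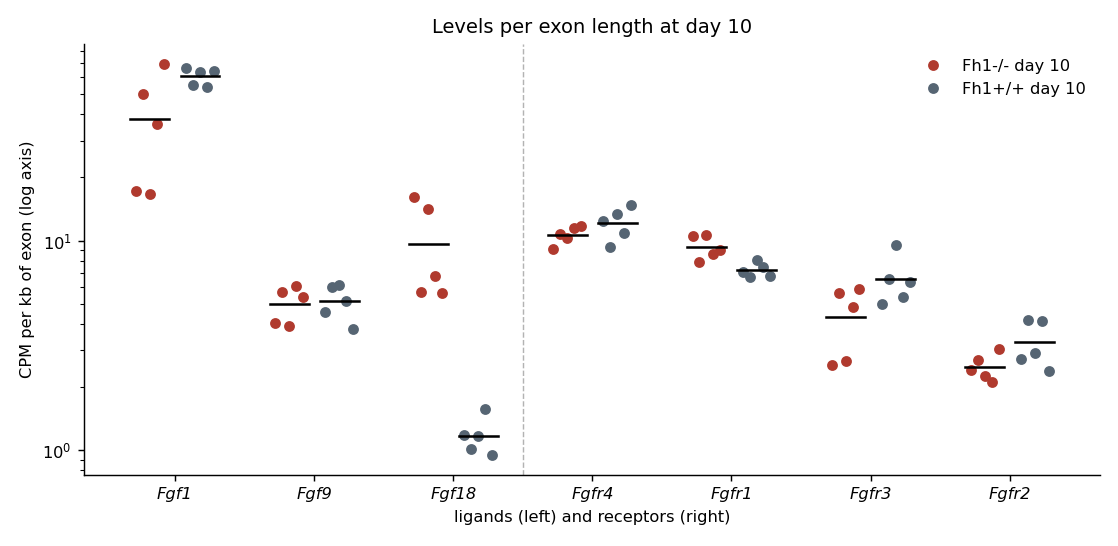
CPM per kb of exon (vertical log axis) at day 10 for 3 ligands and 4 receptors in Fh1-/- (red, left of each pair) and Fh1+/+ kidneys (grey), each point a library and each line a group mean. Fgf18 averages 9.67 CPM per kb in Fh1-/- and 1.17 in Fh1+/+ kidneys. Fgf21 and Klb are left out because many of their libraries are at or near 0.

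The genes whose log2 CPM followed each member most closely over the 20 libraries are given as a description, since libraries share genotype, day and depth. For Fgf18 they were BC021614 (Pearson r = 0.942), Klf3 (0.933), Fga (0.926), Psat1 (0.926) and Csnk1a1 (0.926). Fga encodes a fibrinogen chain and Psat1 an enzyme of serine synthesis. Over the 18 libraries without Fh1-/- replicates 1 and 3 of day 10, the values were 0.898 for BC021614 and 0.836 to 0.858 for the other 4. For Fgf21, at 0 reads in 15 of the 20 libraries, they were Mapkapk2 (0.989), Lrg1 (0.985), Xbp1 (0.984), Ibtk (0.983) and Efhd2 (0.982), with 0.924 to 0.959 over the 18 libraries. Xbp1 is a transcription factor of the endoplasmic reticulum stress response. The genes most like Fgf1 were Bdh1, a mitochondrial ketone body enzyme, at 0.97 (0.812 over 18 libraries) and l7Rn6 at 0.959 (0.745). Fgfr1 was followed most closely by Osmr, the oncostatin M receptor (0.945), and Xdh (0.944), and Fgfr3 by Bbs1 (0.949) and the polycystic kidney disease gene Pkhd1 (0.947). The next were Tmem30b (0.934) and Tiam1 (0.932) for Fgfr2, Spr (0.885) for Fgfr4, and Gm16576 (0.82) and Me3 (0.792) for Fgf9. Klb was followed by Mrap (0.806), a melanocortin receptor partner known from fat and adrenal cells. Over 18 libraries the values of the genes named for these 6 members lay between 0.806 for Bbs1 and 0.933 for Tmem30b.

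Of the genes around the FGF pathway, 117 were listed and 101 were tested at day 10. The lists were chosen with earlier results of these data known, so their shares here and below are given as a description. EdgeR called 0 of them at the threshold above, while DESeq2 called 12 higher and 1 lower. At p under 0.05 before adjustment, 38 (37.6%) were higher and 10 (9.9%) lower, beside 15.1% higher and 11.9% lower of all 14360 genes tested at day 10. Over all genes, edgeR called 4 higher and 4 lower and DESeq2 501 and 295, so the count turned on the tool. The median log2 fold change was 0.22 over the pathway genes, 0.10 without replicates 1 and 3, and -0.00073 over all genes tested. At day 5 edgeR called 0 of 99 pathway genes and DESeq2 called 1. At unadjusted p under 0.05 (edgeR), 7 (7.07%) were higher and 3 (3.03%) lower, beside 2.42% and 2.37% of all genes. The median of the pathway genes was -0.00027. For the difference of the genotype effect between the days, edgeR called 0 of 103 and DESeq2 called 4, where edgeR called 0.0335% of 14934 genes. At unadjusted p under 0.05 (edgeR), 30 (29.1%) were higher and 5 (4.85%) lower, beside 11.8% and 8.4% of all genes.

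Among the 18 other FGFs, 3 were abundant enough to be tested and none was called by either tool. The log2 fold change of Fgf11 was -0.68 at day 10 (SE 0.39, adjusted p = 0.27, edgeR), Fgf10 one of -0.22 and Fgf12 one of 0.10. The 15 not tested held between 0 and 165 reads over all 20 libraries, with Fgf3 and Fgf20 at 0. Fgf23, the phosphate hormone made in bone, held 7.

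The list of co-receptors and binding partners had 28 genes, all tested, with a median of 0.0047 at day 10 and 5 (17.9%) higher and 8 (28.6%) lower at unadjusted p under 0.05, where 15.1% and 11.9% of all genes were. Hs6st2, a sulfotransferase that modifies heparan sulfate, had 0.552, 3.19, 1.07, 1.93 and 3.89 CPM in Fh1-/- replicates at day 10, against 9.10, 7.56, 5.25, 9.01 and 9.32 CPM in Fh1+/+ replicates. The groups did not overlap, and the log2 fold change of -1.91 (SE 0.45) had an adjusted p of 0.0496 with edgeR and 0.00075 with DESeq2. Sulf2, which removes sulfate from the same chains, was at 39.9 to 99.0 CPM in Fh1-/- and 24.0 to 34.9 CPM in Fh1+/+ kidneys (log2 fold change 1.02, adjusted p = 0.073, edgeR). Ndst2 (0.32) and Hspg2 (-1.14), an enzyme and a core protein of heparan sulfate, also missed the threshold, at adjusted p-values of 0.080 and 0.090 (edgeR).

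Kl, the alpha-klotho gene of the tubule and the co-receptor of Fgf23, had 110, 709, 103, 425 and 252 CPM in Fh1-/- replicates at day 10, against 762, 839, 578, 859 and 938 CPM in Fh1+/+ replicates. Replicates 1, 3, 4 and 5 lay below all Fh1+/+ libraries and replicate 2 lay among them. The log2 fold change was -1.32 (SE 0.49, adjusted p = 0.13, edgeR, 0.041 with DESeq2), and -0.77 without replicates 1 and 3. At day 5 Kl averaged 966 ± 109 CPM in Fh1-/- and 914 ± 81.8 CPM in Fh1+/+ kidneys (SD, n = 5 each). Of the Fgf23 target list, 8 of 9 genes were tested, 0 were called by either tool, and the median was -0.22 at day 10. At an unadjusted p under 0.05, 1 (12.5%) was higher and 3 (37.5%) were lower, where 15.1% and 11.9% of all genes were. Slc34a3, a sodium-phosphate carrier of the proximal tubule, stood at -1.54 on the log2 scale (adjusted p = 0.14), Pth1r one of -0.34 (0.16) and Slc20a2 one of 0.54 (0.18, edgeR). Proximal tubule marker sums were lowest in replicates 1 and 3, as given above. Sums of distal convoluted tubule markers (Slc12a3, Pvalb, Calb1 and Trpm6) were 1350 and 1450 CPM in these replicates. They were 1580 to 2010 CPM in the other Fh1-/- libraries, against 1670 to 2150 CPM in Fh1+/+ libraries at day 10. Loop of Henle sums (Umod, Slc12a1, Cldn16 and Ptger3) were 7050 and 7090 CPM in replicates 1 and 3, against 5960 to 11900 CPM in Fh1+/+ libraries. The part of cell composition in the values of this list was not tested.

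**Figure D4:**
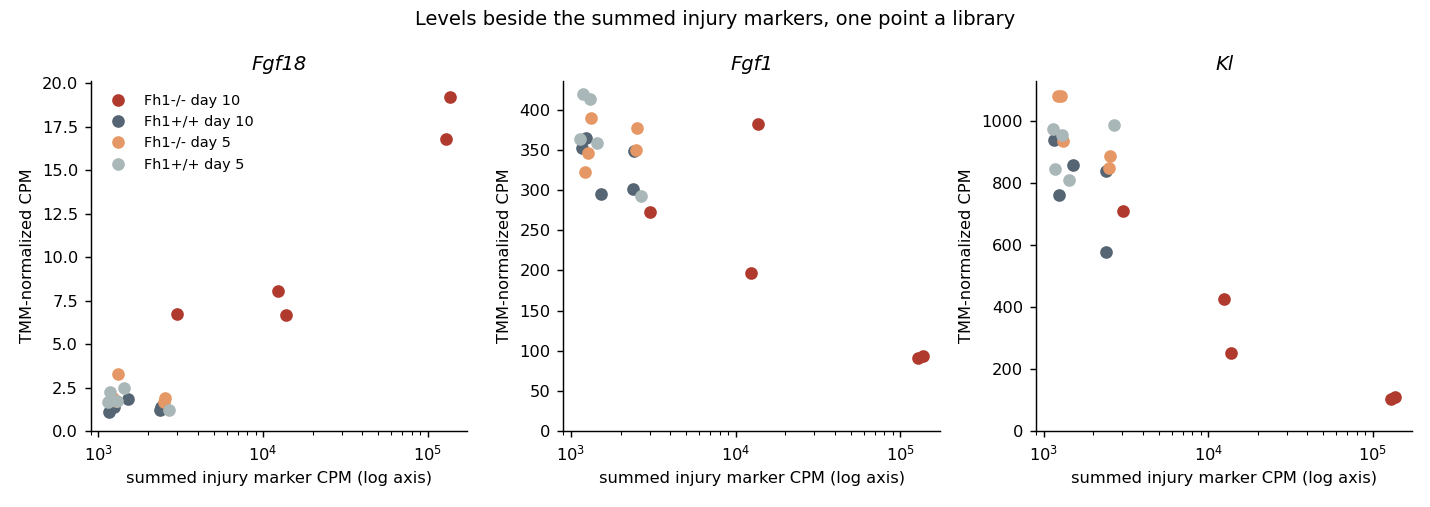
TMM-normalized CPM (vertical axis, from 0) of Fgf18, Fgf1 and Kl against the summed CPM of 6 injury markers (horizontal log axis), each point 1 of the 20 libraries. Fh1-/- replicate 2 of day 10, with a marker sum of 3020 CPM, holds 6.72 CPM of Fgf18 but 273 CPM of Fgf1 and 709 CPM of Kl, near the values of the Fh1+/+ libraries.

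The relay from receptor to kinases comprised 31 tested genes, 22 of them above 0 at day 10, with a median of 0.13 and 10 (32.3%) higher and 0 lower at unadjusted p under 0.05, beside the same 15.1% and 11.9% of all genes. Stat3, a transcription factor that FGF and cytokine receptors can activate, had 569, 166, 579, 371 and 332 CPM in Fh1-/- replicates, against 101, 94.2, 132, 102 and 86.9 CPM in Fh1+/+ replicates. The groups did not overlap, and the log2 fold change was 1.96 (SE 0.30), with an adjusted p of 0.021 by edgeR and 6.8e-08 by DESeq2. The adaptors Pik3r1 (0.88), Shb (0.82) and Shc1 (0.57) had adjusted p-values of 0.072, 0.090 and 0.095 (edgeR).

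Feedback inhibitors and target genes of FGF signalling, listed together with Pea15a and Cic, which are neither but act with ERK, numbered 20. Of these, 19 were tested and 18 were above 0 at day 10 (median 0.39, or 0.23 without replicates 1 and 3). At an unadjusted p under 0.05, 11 (57.9%) were higher and 0 lower, against 15.1% and 11.9% of all genes, and DESeq2 called 6 higher. The 6 were Myc, Pea15a, Cic, Egr1, Dusp5 and Fosl1. Myc, a growth-promoting transcription factor, had 80.3, 26.0, 92.1, 18.9 and 17.1 CPM in Fh1-/- replicates at day 10, against 6.62, 7.15, 8.29, 9.27 and 4.04 CPM in Fh1+/+ replicates. The groups did not overlap, with a log2 fold change of 2.72 (SE 0.52, adjusted p = 0.035, edgeR). Pea15a, which holds ERK in the cytoplasm, was higher by 2.17 on the log2 scale (adjusted p = 0.036), and Cic, a repressor that ERK inactivates, one of 0.64 (adjusted p = 0.0495, edgeR). Egr1, an immediate early gene of ERK signalling, had 273 and 283 CPM in Fh1-/- replicates 1 and 3, and 8.20 to 25.7 CPM in replicates 2, 4 and 5, against 4.29 to 14.5 CPM in Fh1+/+ replicates. Its log2 fold change of 3.95 was 1.13 without those replicates, that of Fosl1 (5.44) was 0.43 and that of Dusp5 (2.56) was 0.95, so these values came mainly from 2 libraries.

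The other 13 tested genes of this list were called by neither tool, 12 of them with values above 0 and log2 fold changes between -0.79 for Ccnd1 and 1.80 for Spred3. Spred1, an inhibitor of RAS signalling, was the one of them whose groups did not overlap, at 49.3 to 70.3 CPM in Fh1-/- and 40.2 to 49.2 CPM in Fh1+/+ replicates at day 10 (log2 fold change 0.36, adjusted p = 0.096, edgeR). Il17rd, an inhibitor of FGF receptor signalling, was at 0.39 on the log2 scale and Spred2 at 0.34, with adjusted p-values of 0.11 and 0.14 (edgeR). Spred3 was 0.07 without replicates 1 and 3. Spry4, a sprouty inhibitor, had 16.5, 15.2, 17.5, 15.0 and 10.1 CPM in Fh1-/- replicates at day 10, against 7.75, 13.6, 12.5, 13.6 and 10.5 CPM in Fh1+/+ replicates, and its log2 fold change was 0.35 (adjusted p = 0.26, edgeR). Dusp6, an ERK phosphatase, was at 35.01 to 90.7 CPM in Fh1-/- and 40.5 to 80.8 CPM in Fh1+/+ replicates, and Etv5, an ETS factor, at 10.1 to 19.5 and 13.0 to 18.7 CPM. The 8 genes Spred1, Spred2, Spred3, Il17rd, Spry4, Dusp6, Etv5 and Ccnd1 were named after their values were seen. At day 5 Pea15a had 103 to 151 CPM in Fh1-/- and 57.1 to 90.7 CPM in Fh1+/+ libraries, a log2 difference of 0.78 with adjusted p-values of 0.16 by edgeR and 0.00025 by DESeq2. Pea15a lies on chromosome 1 (chr1:172196728-172206804), the chromosome of Fh1. In mice of mixed background, strain differences carried with the floxed allele cannot be told apart from the loss of Fh1 here.

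The last list held 13 genes that are known to be induced with Fgf21, by amino acid and mitochondrial stress through Atf4 or by fasting through Ppara. All were tested, 12 were above 0 at day 10, 11 (84.6%) were higher and 0 lower at unadjusted p under 0.05 (all genes 15.1% and 11.9%), and the median was 0.86 (0.67 without replicates 1 and 3). DESeq2 called Pdk4, Chac1, Atf4, Gdf15 and Trib3 higher. Pdk4, a kinase that shuts down pyruvate dehydrogenase, had 923, 99.8, 817, 130 and 622 CPM in Fh1-/- replicates, against 43.5, 39.8, 80.3, 31.4 and 49.9 CPM in Fh1+/+ replicates. The groups did not overlap, and the log2 fold change was 3.40 (SE 0.63, adjusted p = 0.034, edgeR), or 2.55 without replicates 1 and 3. Atf4 itself had 221, 99.5, 226, 153 and 129 CPM in Fh1-/- replicates, against 88.9, 83.3, 96.4, 93.0 and 103 CPM in Fh1+/+ replicates, with replicate 2 inside the Fh1+/+ range (log2 fold change 0.83, adjusted p = 0.064, edgeR). Gdf15, a stress hormone, was at 161 and 209 CPM in replicates 1 and 3 and 8.12 to 14.2 CPM in the other Fh1-/- libraries, against 4.49 to 9.61 CPM in Fh1+/+ libraries. Its log2 fold change of 3.52 was 0.78 without those replicates, and that of Trib3 (2.41) was 0.72, whereas that of Chac1 (2.82) was 3.16. Chac1 varied widely at day 10, from 0.44 to 18.7 CPM per kb in Fh1-/- libraries, against 0.55 to 1.33 in Fh1+/+ libraries. The lowest Fh1-/- library for Chac1 lay below all Fh1+/+ libraries.

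**Figure D5:**
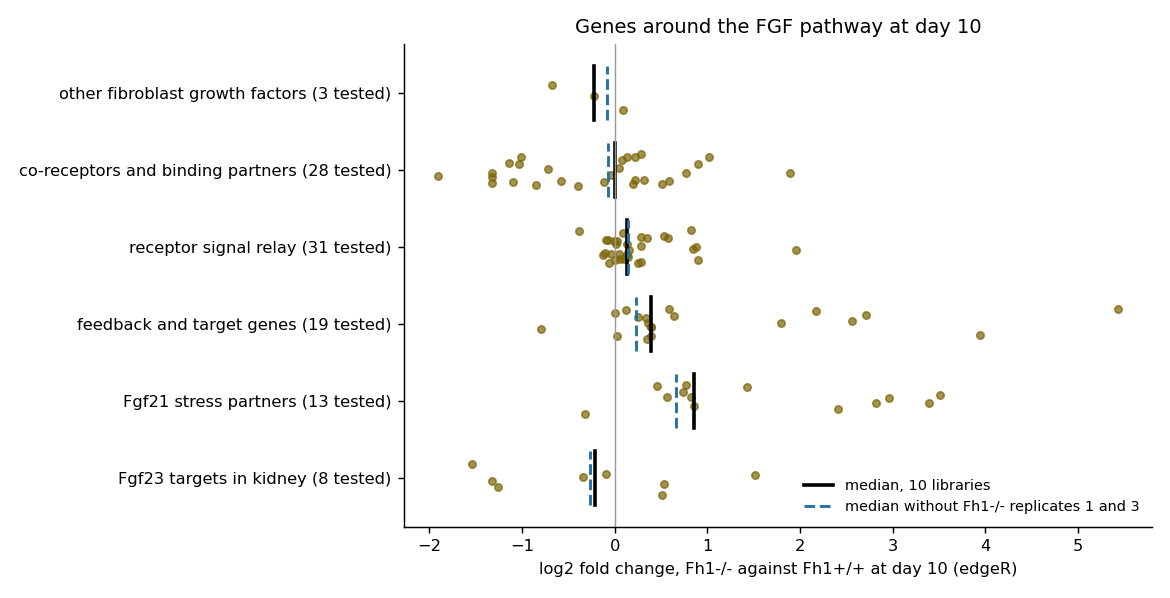
Log2 fold changes of Fh1-/- against Fh1+/+ at day 10 (horizontal axis) for the tested genes of 6 lists, each point a gene, with the list median over all 10 libraries (black line) and without Fh1-/- replicates 1 and 3 (dashed blue line). The median is 0.86 for the Fgf21 stress partners and 0.39 for feedback and target genes, and edgeR called 0 genes in these lists.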

How the data were processed

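Per the labels and the study's methods, polyA RNA of 20 kidney samples was prepared with a stranded kit, aligned to GRCm38 with STAR (version 2.6.0c), trimmed with Cutadapt and counted per gene with Rsubread and GENCODE M17. The authors deposited raw counts per gene symbol. How strand was handled in counting is not stated in the sources used here. From these counts, edgeR 4.0.16 (R 4.3.3) quasi-likelihood fits with TMM factors and filterByExpr compared the genotypes within each day and the days within Fh1+/+ kidneys, each in 10 libraries, and the difference between the days in 20. A call is a Benjamini-Hochberg adjusted p under 0.01 with an absolute log2 fold change over 0.58. Standard errors (SE) of edgeR fold changes were derived as the absolute log2 fold change divided by the square root of the quasi-likelihood F statistic. The study itself tested with DESeq2, in another version, at these thresholds. Over all genes at day 10, DESeq2 called 501 higher and 295 lower here, where edgeR called 4 and 4. DESeq2 1.42.0 and limma 3.58.1 (voom) were alternatives. The closing section gives the others. Scripts were tested on simulated data. The members, lists and tests were chosen with earlier results of these data known. Named were all members, up to 4 genes of each list by smallest p at day 10, genes called in any fit, and the genes most correlated with each member (5 for Fgf18 and Fgf21, up to 2 for the others, of which some are not reported here) among genes with a mean of at least 1 CPM. Exon lengths and positions come from GENCODE vM21, another release on GRCm38 than the one counted.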

Additional observations from a re-analysis of the deposited data

Results flagged for a closer look

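Over 33 groups of 5 libraries examined for a value far from the rest, 3 values stood apart, and chance alone flags about 1 in 20 groups. Fgf18 in Fh1-/- replicate 1 of day 5 was at 3.3 CPM, above the other 4 libraries of its group at 1.66 to 1.93 CPM. Klb in Fh1-/- replicate 2 of day 10 was at 1.51 CPM, from 27 reads, above the other 4 libraries at 0 to 0.213 CPM. Fgfr3 in Fh1+/+ replicate 3 of day 5 was at 37.2 CPM, below the other 4 libraries at 44.4 to 46.3 CPM.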

How the results depend on the processing

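Of 595 fold changes of members under other settings, 25 changed sign, 5 moved by more than the replicate spread and 565 did neither. Fgf18 at day 10 was 2.41 with limma-voom and 2.37 without both Fh1-/- replicates 1 and 3, and its difference between the days was 2.19 and 2.21. That difference for Fgfr3 was -0.42 with limma-voom. Values that changed sign were at most 0.15 in size as reported. Fgf9 at day 10 (-0.04) was 0.12 with limma-voom, 0.17 without both Fh1-/- replicates 1 and 3, and up to 0.046 without 1 library. The difference between the days for Fgfr2 (-0.08) was 0.006 and up to 0.048 in the last 2 of these. At day 5, Fgfr1 was -0.021 with the presence of Y-linked transcripts as a covariate and -0.049 with limma-voom, and Fgfr4 was 0.019 and 0.015. Without 1 library at a time, Fgfr1 ranged from -0.024 to 0.082, Fgfr4 from -0.060 to 0.028 and Fgf18 from -0.066 to 0.29. Between the days in Fh1+/+ kidneys, Fgfr3 was -8.6e-05 with limma-voom and ranged from -0.075 to 0.19 without 1 library, and Fgfr1 from -0.022 to 0.047.

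The count of 1 member called at day 10 was 0 with a filter of 1 CPM in 5 libraries and 0 with the Y-linked covariate, and 0 to 1 without 1 library. Replicate numbers are shared between groups. Per the study's methods the controls were littermates of the Fh1-/- mice, but the labels do not give litters. Same-numbered libraries correlated at -0.505 to 0.331 in their deviations from group means, which does not settle whether libraries were paired by litter. With the replicate number as a block, the count of members called at day 10 was 0. Pathway genes called at day 5 numbered 1 with DESeq2 and 1 with the Y-linked covariate, against 0. At day 10, against 0, they numbered 6 at an adjusted p under 0.05, 13 with DESeq2, 15 in one fit of all 20 libraries and 0 to 4 without 1 library, with 4 reached without Fh1-/- replicate 2. For the difference between the days, against 0, they numbered 3 at an adjusted p under 0.05, 4 with DESeq2, 1 with no filter, 1 with the filter of 1 CPM, 3 with the Y-linked covariate and 0 to 5 without 1 library, with 5 reached without Fh1-/- replicate 2 of day 10. The cause of these changes was not tested. Fgf21 and Klb did not pass the filter on low counts and were compared by counting limits.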
